A study of Mus musculus with 16 samples.

Results

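The 10 serotonin receptor genes Htr3a, Htr3b, Htr1a, Htr1b, Htr1d, Htr1f, Htr2a, Htr2b, Htr4 and Htr7 were read by symbol from count tables of 22609 genes, and all 10 symbols were present. The tables came from sensory neurons of adult male C57BL/6J mice that carried Pirt-cre and a Cre-dependent TdTomato reporter, so a cell was labelled where Pirt, a gene of most peripheral sensory neurons, had driven Cre. Brightly labelled cells were sorted in 2 cycles from trigeminal ganglia (TG), nodose and jugular ganglia (NG/JG), L3–L5 dorsal root ganglia (L3–L5 DRG) and T10-L1 dorsal root ganglia (T10-L1 DRG). All mice were untreated and each ganglion had 4 libraries, 16 in all. The study's methods give a range of cell numbers per library that depended on the ganglion, while its results describe the numbers used as roughly alike. Any difference in cell number between the ganglia cannot be told apart from the ganglion. Whether a library came from 1 animal or from a pool is not given in the sources used here, so the p-values measure the spread between libraries.

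Serotonin reaches sensory nerve endings from platelets, mast cells and the enterochromaffin cells of the gut, and it acts on them through receptors of several families. The Htr3 genes encode subunits of a cation channel that serotonin opens directly, and the Htr3a subunit can form that channel alone while Htr3b needs Htr3a. The other members are G protein-coupled: the Htr1 receptors act through Gi/o and lower cAMP, the Htr2 receptors act through Gq and phospholipase C, and Htr4 and Htr7 act through Gs and raise cAMP. Vagal afferents of the nodose ganglion are known for fast responses to serotonin through the Htr3 channel, and Htr1b, Htr1d and Htr1f are the targets of the triptans used against migraine.

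Libraries had 4735624 to 13333318 reads on genes, and 3 reads, used here as the floor of detection, corresponded to 0.225 to 0.634 CPM (read counts scaled to the total on genes). The reads on all 10 receptor genes together numbered 5 to 7346 per library. All 8 sensory neuron markers were above the floor in at least 1 library of each ganglion, with a summed level of 851 to 10430 CPM. The median of this sum was 6130 CPM for L3–L5 DRG, 3720.5 for NG/JG, 2570 for T10-L1 DRG and 2393.5 for TG, with overlapping ranges. Of these 8 markers, edgeR called 1, Avil, for any difference among the ganglia. The summed level of the satellite glia and Schwann cell markers was higher in every library, by 1.99 to 101 times, on a scale that is not corrected for gene length. This glial excess was 25 to 101 times for TG, 9.49 to 28 for T10-L1 DRG, 9.48 to 49.5 for NG/JG and 1.99 to 54.5 for L3–L5 DRG. Of 5 satellite glia markers edgeR called 1 among the ganglia, Apoe, and of 5 Schwann cell markers it called 0. TG library 1 stood apart, with the lowest neuron marker sum, the highest glial excess and the 5 receptor reads. All 16 libraries held Xist reads, 1279 to 8362 of them, and none had a read on the 13 counted Y chromosome genes, although the labels give the mice as male. The part of these differences in the results below was not tested. In sorted pools, fewer cells of a type and less RNA per cell cannot be told apart.

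Htr3a was the most abundant member and stood highest in NG/JG. It lies on the minus strand at chr9:48707319-48719204 of mm9, with 2082 bp of annotated exon. Its level in NG/JG libraries 1 to 4 was 144, 375, 1004 and 562 CPM. In TG it was 0.508, 18.9, 71.8 and 14.6 CPM. The T10-L1 DRG libraries had 2.75, 12.6, 190.5 and 1.20 CPM. The L3–L5 DRG libraries had 1.26, 29.6, 129 and 15.6 CPM. Every NG/JG library lay above all TG and all L3–L5 DRG libraries, and 1 T10-L1 DRG library, number 3, overlapped NG/JG. The means were 521 ± 364 CPM in NG/JG, 51.8 ± 92.7 in T10-L1 DRG, 43.9 ± 58.1 in L3–L5 DRG and 26.4 ± 31.2 in TG (SD, n = 4 each). The last 3 means differ by less than their spread.

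In edgeR's quasi-likelihood test with Benjamini-Hochberg adjustment, the log2 difference of NG/JG from the mean of the other ganglia was 3.68 for Htr3a (SE 1.01, adjusted p = 0.0820, 16 libraries), which did not pass 0.05. The same test without T10-L1 DRG library 3 gave 4.79 (adjusted p = 0.0215), and without NG/JG library 1 it gave 3.99 (adjusted p = 0.0485). These were the only 2 of 16 fits leaving out a single library that passed 0.05, with values of 3.22 to 4.79 over the 16. With all 16 libraries, edgeR gave 3.75 (adjusted p = 0.0438) when genes with low counts were kept. Library 3 held the highest Htr3a level in each of the 4 ganglia. It also had the highest neuron marker sum of each: 3462 CPM for TG, 4613 for NG/JG, 10430 for L3–L5 DRG, 3372 for T10-L1 DRG. Its glial excess was the lowest of each ganglion except NG/JG, where library 2 had 9.48 times and library 3 had 13.2. The part of neuron content in the Htr3a values was not tested. Without TG library 1 the edgeR log2 difference of NG/JG from the mean of the other ganglia was 3.54 (adjusted p = 0.0648). On 8 libraries each, edgeR gave a log2 difference of -4.07 for TG minus NG/JG (SE 1.09, adjusted p = 0.157), 3.68 for NG/JG minus L3–L5 DRG (SE 1.14, adjusted p = 0.373) and 3.40 for NG/JG minus T10-L1 DRG (SE 1.42, adjusted p = 0.745). DESeq2, the other tool run, gave 3.75 for NG/JG against the mean of the other ganglia (SE 1.11, adjusted p = 0.0115). Vagal markers were summed at 127 to 1392 CPM in NG/JG and at 0.762 to 116 CPM in the other ganglia, and their part in the Htr3a values was not tested.

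**Figure D1:**
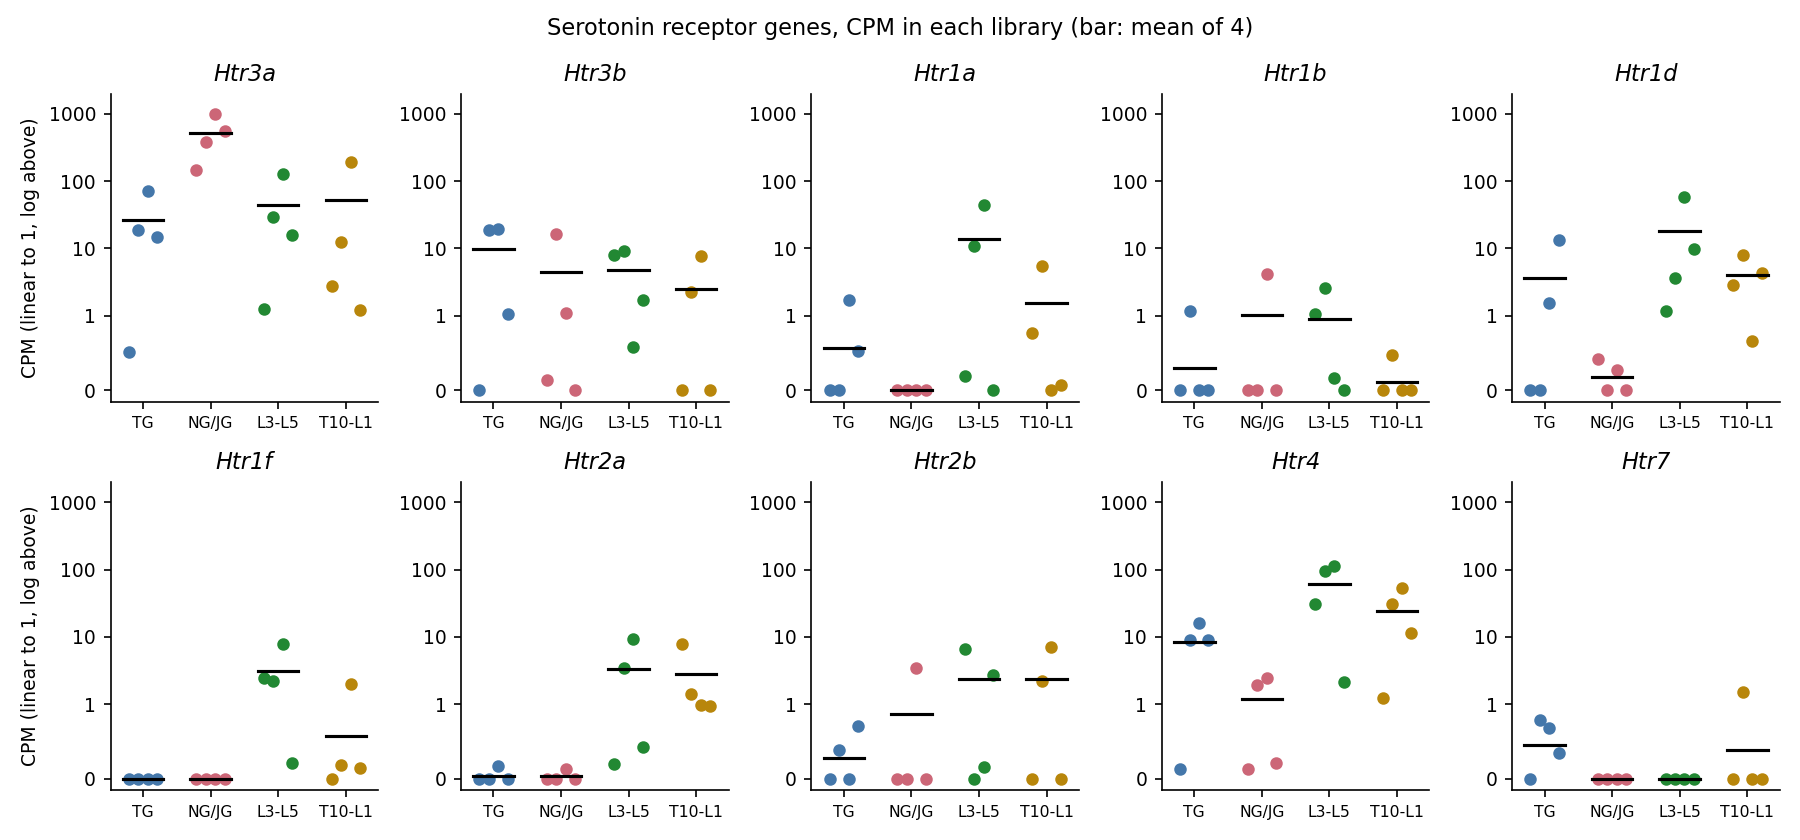
CPM of each serotonin receptor gene (y axis, linear up to 1 and logarithmic above) in the 4 libraries of each ganglion (x axis, points in order of library number), with a bar at the mean of 4. Htr3a in NG/JG sits between 144 and 1004 CPM, while Htr1a, Htr1f and Htr7 lie at 0 in all 4 NG/JG libraries.

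Htr3b, the second channel subunit, did not follow Htr3a. It lies on the same strand at chr9:48743113-48773095, 23908 bp from the end of Htr3a with 0 annotated genes wholly between them. Its counts were 0, 96, 113 and 6 reads in TG, 1, 146, 8 and 0 in NG/JG, 0, 24, 94 and 0 in T10-L1 DRG, and 83, 91, 7 and 8 in L3–L5 DRG. The ganglia overlapped in every pair. Means were 9.84 ± 10.8 CPM in TG, 4.84 ± 4.33 in L3–L5 DRG, 4.46 ± 8.12 in NG/JG and 2.50 ± 3.64 in T10-L1 DRG (SD, n = 4), an order in which no neighbours differ beyond their spread. NG/JG library 2 alone held 146 of the 155 Htr3b reads of NG/JG.

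For each library the log2 ratio of Htr3b to Htr3a reads was taken after adding 0.5 to both counts. Its mean was -9.27 ± 3.66 in NG/JG, -4.33 ± 1.28 in T10-L1 DRG, -2.48 ± 4.26 in L3–L5 DRG and -2.18 ± 1.64 in TG (SD, n = 4). Per 100 Htr3a reads there were 0.0964, 4.43, 0.11 and 0 Htr3b reads in NG/JG, 0, 100, 27 and 7.23 in TG and 0, 18.2, 4.06 and 0 in T10-L1 DRG. L3–L5 DRG ran from 0.446 in library 3 to 638 in library 1, the only library with more Htr3b than Htr3a. T10-L1 DRG libraries 1, 3 and 4 lay within the NG/JG range per 100 reads. The log2 ratios of T10-L1 DRG libraries 1 and 4 and of NG/JG library 4, with 0 Htr3b reads, depend on the added 0.5. TG library 1, with 0 Htr3b reads beside 4 Htr3a reads, lay within the NG/JG range per 100 reads, and it lay above it on the log2 scale only through the added 0.5. On that scale TG and NG/JG differed by 7.08 log2 units (two-sided exact permutation p = 0.0286, the smallest that 4 against 4 can give, adjusted p = 0.171 over 6 pairs). The difference of NG/JG minus L3–L5 DRG was -6.79 (exact permutation p = 0.0571, adjusted p = 0.171). NG/JG minus T10-L1 DRG gave -4.94 (exact permutation p = 0.114, adjusted p = 0.171), TG minus T10-L1 DRG 2.14 (p = 0.0857, adjusted p = 0.171), L3–L5 DRG minus T10-L1 DRG 1.85 (p = 0.486, adjusted p = 0.583) and TG minus L3–L5 DRG 0.30 (p = 0.971). None of the 6 pairs passed after adjustment. With 4 libraries per ganglion, 1 pair alone at the smallest exact permutation p of 0.0286 could not pass over 6 pairs. The adjusted values therefore cannot decide whether a single pair differs.

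**Figure D2:**
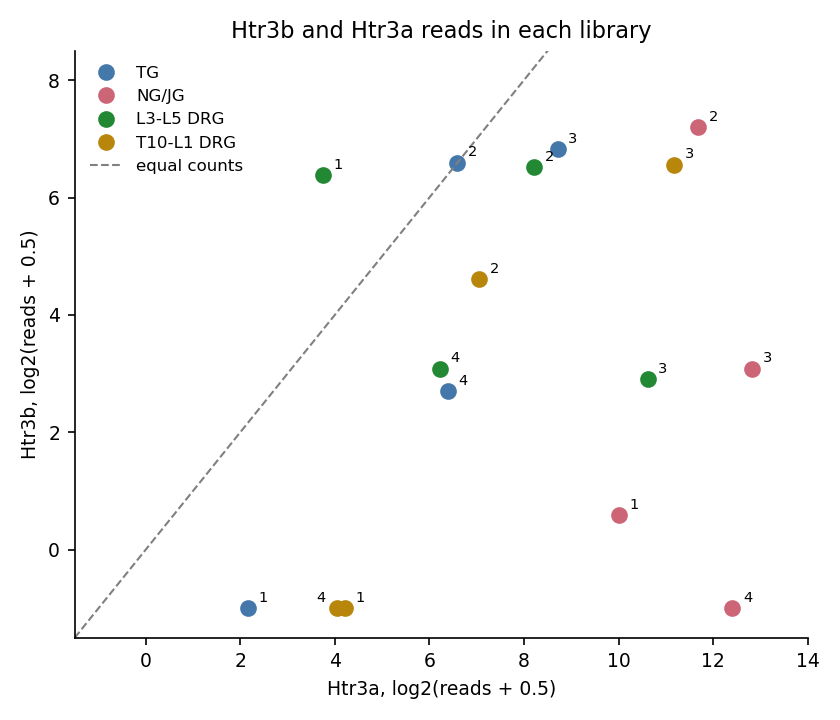
Htr3b reads (y axis, log2 of reads plus 0.5) against Htr3a reads (x axis, same scale) in each of 16 libraries, coloured by ganglion and marked with the library number; the dashed line marks equal counts. NG/JG libraries lie far right, with 1037 to 7262 Htr3a reads, and only L3–L5 DRG library 1 lies above the line.

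The make-up of the receptor reads within a library is not changed by any scaling between libraries. Htr3a took 99.5%, 95.3%, 98.9% and 100% of the reads on the 10 genes in NG/JG libraries 1 to 4, the last being 5437 of 5439 reads. In TG it took 36.9% to 80.0%, where the highest share is 4 of 5 reads with an exact 95% binomial interval of 28.4% to 99.5%. Its share was 6.64% to 72.6% among T10-L1 DRG libraries and 2.43% to 47.7% among L3–L5 DRG libraries. All 4 NG/JG libraries lay above the other 12. Htr4 took 0.0368% to 0.491% in NG/JG and 6.45% to 63.1% in the 12 others, again without overlap. Htr3a alone led in 10 of the 16 libraries, Htr4 in 4 and Htr2a in 1, and Htr3a and Htr3b were tied in 1, TG library 2. A share of one member falls when another rises, and the intervals cover counting error only, since reads without molecular identifiers are not independent molecules.

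**Figure D3:**
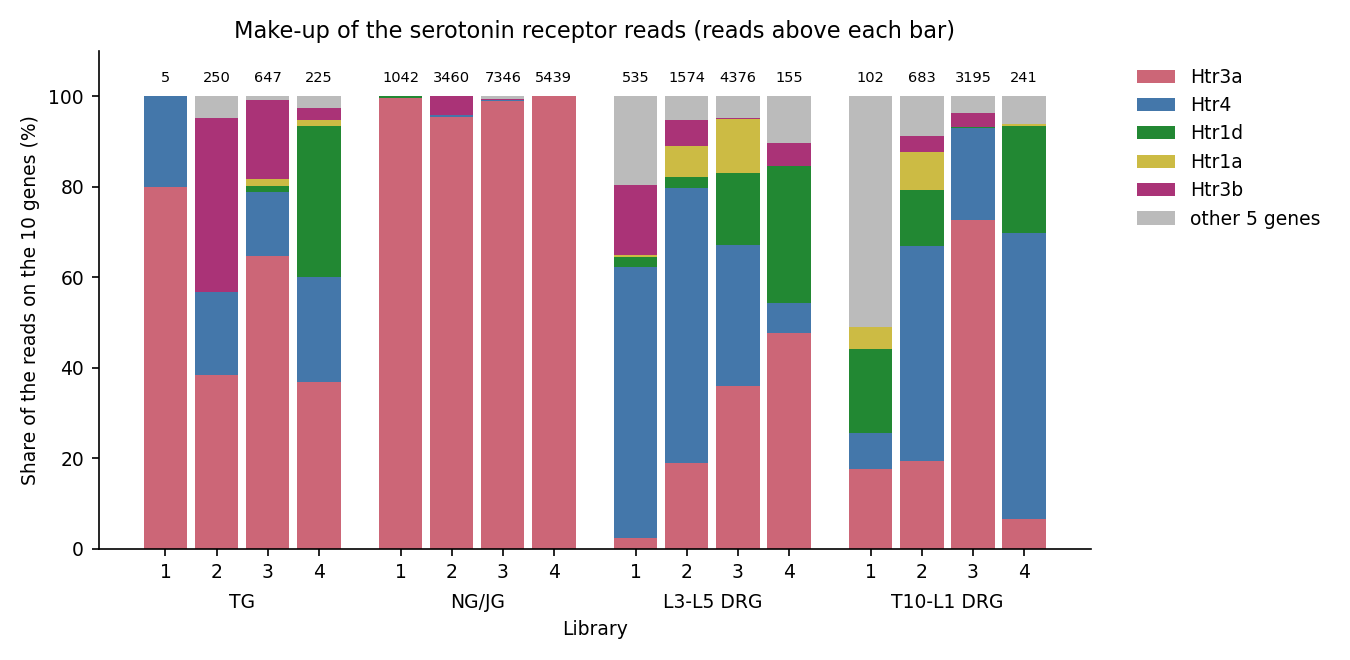
Share of the reads on the 10 genes (y axis, percent) taken by 5 named genes and by the other 5 together, in each library (x axis, libraries 1 to 4 of each ganglion), with the number of reads above each bar. Htr3a fills 95.3% or more of each NG/JG bar, while Htr4 takes 59.8% and 60.8% in L3–L5 DRG libraries 1 and 2.

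Htr4, which raises cAMP through Gs, was the second most abundant member and had its highest mean in L3–L5 DRG. Its level there was 31.1, 94.98, 112.5 and 2.11 CPM. T10-L1 DRG libraries had 1.22, 30.9, 53.6 and 11.4 CPM. TG had 0.127, 9.05, 15.8 and 9.13 CPM, and NG/JG 0.139, 1.94, 2.49 and 0.207 CPM. Library 4 of L3–L5 DRG and library 1 of T10-L1 DRG overlapped the NG/JG range, so no pair of ganglia was fully separated. On the RPKM scale, which also divides by exon length, the mean Htr4 level was 12.9 ± 11.2 RPKM in L3–L5 DRG and 0.256 ± 0.257 in NG/JG, where Htr3a stood at 21.1 ± 27.9 and 250.4 ± 174.9 RPKM (SD, n = 4). The edgeR log2 difference of NG/JG from the mean of the other ganglia was -4.38 (SE 1.41, adjusted p = 0.120), and without TG library 1 it was -4.51 (adjusted p = 0.0641). It was -5.58 for NG/JG minus L3–L5 DRG (SE 1.53, adjusted p = 0.230), and DESeq2 gave -4.33 against the mean of the others (SE 1.02, adjusted p = 0.000707).

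Htr7, the other Gs-coupled member, was barely detected. It had 0, 4, 4 and 2 reads in TG and 0, 16, 0 and 0 in T10-L1 DRG, and none in the 8 NG/JG and L3–L5 DRG libraries. The limit that a count of 0 allows in those is 0.247 to 0.634 CPM.

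Of the Gi/o-coupled members, Htr1d (mm9 chr4:135979439-136000313, plus strand) and Htr1a (chr13:106233773-106238213, plus strand, a single exon) were the most abundant. Htr1d had 19, 84, 8 and 57 reads in T10-L1 DRG, 12, 36, 693 and 47 in L3–L5 DRG, 0, 0, 9 and 75 in TG and 3, 0, 2 and 0 in NG/JG. All 8 DRG libraries were above the floor and above every NG/JG library, while TG overlapped both. Mean Htr1d was 3.96 ± 3.08 CPM for T10-L1 DRG, 17.9 ± 26.4 for L3–L5 DRG, 3.68 ± 6.37 in TG and 0.173 ± 0.208 in NG/JG (SD, n = 4). The edgeR log2 difference of NG/JG from the mean of the others was -5.17 (SE 2.00, adjusted p = 0.183). Htr1a, an inhibitory receptor best known as the autoreceptor of serotonergic neurons, had 5, 57, 0 and 1 reads in T10-L1 DRG, 2, 109, 529 and 0 in L3–L5 DRG, 0, 0, 10 and 3 in TG and 0 in all 4 NG/JG libraries. Against 3 counts per NG/JG library, the mean CPM of T10-L1 DRG was at least 4.22-fold higher and that of L3–L5 DRG at least 36.8-fold higher, with 1 library of each DRG group also at 0. Each bound rested on 1 library: without L3–L5 DRG library 3 the second was 9.9-fold, and without T10-L1 DRG library 2 the mean Htr1a level, 0.28 CPM, was below the NG/JG floor of 0.371 CPM and gave no bound. Leaving out libraries for these Htr1 and Htr2 folds was chosen after seeing the data.

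Htr1f (mm9 chr16:64924555-65105610, minus strand) was found in DRG alone among these libraries, with 0, 2, 24 and 2 reads in T10-L1 DRG and 25, 22, 95 and 1 in L3–L5 DRG, against 0 in the 8 TG and NG/JG libraries. Its mean in L3–L5 DRG, 3.16 ± 3.26 CPM (SD, n = 4), was at least 6.29-fold higher than in TG and at least 8.53-fold higher than in NG/JG. Without L3–L5 DRG library 3 these Htr1f bounds were 3.2-fold and 4.34-fold. Htr1b had 2 to 30 reads in 6 libraries and 0 in the others. Of its annotated exon length, 66.9% overlaps D430036J16Rik on the other strand, and since the strand setting is not given, its reads cannot be assigned with certainty.

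Of the Gq-coupled members, Htr2a (mm9 chr14:75040647-75106666, plus strand), a receptor of nociceptor endings and smooth muscle, was also nearly confined to DRG. It had 52, 15, 12 and 13 reads in T10-L1 DRG and 2, 35, 114 and 2 in L3–L5 DRG, against a single read in TG and a single read in NG/JG. Of the 8 DRG libraries 6 were above the floor, and none of the 8 TG and NG/JG libraries was. The ratio of pooled CPM was 101 for L3–L5 DRG to TG (counting interval 17.8 to 4000) and 71.1 for T10-L1 DRG to NG/JG (12.4 to 2840). Without L3–L5 DRG library 3, which held 114 of the 153 Htr2a reads there, the first ratio was 38, and without T10-L1 DRG library 1, with 52 of 92 reads, the second was 36.5. Htr2b was scattered, with 0, 23, 87 and 0 reads in T10-L1 DRG, 67, 0, 2 and 13 in L3–L5 DRG, 0, 2, 0 and 4 in TG and 0, 0, 25 and 0 in NG/JG, and 11.8% of its exon length overlaps Psmd1 on the other strand. Of 5 markers of nociceptors with Nppb, 3 were tested among the 4 ganglia and edgeR called 0. Their sums overlapped, with 73.7 to 283.5 CPM in DRG, 6.36 to 131 in TG and 14.7 to 130 in NG/JG. In TG only library 1 overlapped DRG, and the other TG libraries had at most 11.4 CPM. Nppb and Sst were at the floor in all TG and NG/JG libraries, while Cysltr2 had its highest mean in NG/JG, 6.38 CPM, and Il31ra averaged 6.89 CPM in TG. Of 5 mural and smooth muscle markers edgeR called 1 among the ganglia, Rgs5. Rgs5 and Myh11 were at the floor in NG/JG, and the list summed to 50.6 to 168 CPM there, 62.8 to 428 in TG and 26.7 to 1193 in DRG. Of 5 neutrophil markers edgeR called 4 among the ganglia (Camp, Ngp, S100a8 and S100a9), and they were summed at 5.16 to 929 CPM in DRG, 0 to 46.0 in TG and 0.341 to 1.53 in NG/JG. The part of these 3 lists in the Htr1f and Htr2a values was not tested.

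The sequences before the annotated starts of Htr1a, Htr1f and Htr2a are shown because these are members highest in DRG that have a single start in the RefSeq table, which held 8 of the 10 members on GRCm38.p6. Each is the 250 bases before the start, 5′ to 3′ on the strand of the gene, and capitals mark any match on either strand to TATAAA (the TATA box), to CCAAT (the CCAAT box) or to GGGCGG (the GC box). The stretches are chr13:105443443-105443692 (plus strand), chr16:65105785-65106034 (minus strand) and chr14:74640624-74640873 (plus strand).
Htr1a: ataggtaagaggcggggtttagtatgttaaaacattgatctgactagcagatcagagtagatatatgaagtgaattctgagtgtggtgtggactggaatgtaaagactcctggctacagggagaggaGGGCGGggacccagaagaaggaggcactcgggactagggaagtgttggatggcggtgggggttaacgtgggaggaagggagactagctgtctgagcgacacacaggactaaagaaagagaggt
Htr1f: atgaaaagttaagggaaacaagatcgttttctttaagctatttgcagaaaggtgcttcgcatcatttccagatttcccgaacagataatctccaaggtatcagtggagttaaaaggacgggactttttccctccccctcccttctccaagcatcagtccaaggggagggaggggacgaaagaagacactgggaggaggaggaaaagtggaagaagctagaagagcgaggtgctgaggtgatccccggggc
Htr2a: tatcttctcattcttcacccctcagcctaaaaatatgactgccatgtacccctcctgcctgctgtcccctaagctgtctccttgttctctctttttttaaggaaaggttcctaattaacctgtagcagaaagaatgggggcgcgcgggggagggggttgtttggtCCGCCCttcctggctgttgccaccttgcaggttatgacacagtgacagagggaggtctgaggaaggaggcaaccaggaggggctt
Htr1a and Htr2a each held 1 match to GGGCGG and Htr1f held 0, where 32.7% of 32851 promoters in the table hold it. None of these stretches held the TATA box or the CCAAT box, which occur in 12.4% and 33.8% of promoters. They held 6, 7 and 4 CG dinucleotides, against a median of 6 over all promoters.

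Across the genome, edgeR called 429 of 14236 genes (3.01%) for any difference among the 4 ganglia and 118 of 14236 (0.829%) for NG/JG against the mean of the others, at an adjusted p under 0.05. None of the 8 members that passed the filter on low counts was called in either, and 5 had an unadjusted p under 0.05 in each, as had 17.5% and 17.1% of all genes tested. Htr1f and Htr2a, with at most 1 read in any TG or NG/JG library, passed that filter only through DRG libraries, where they were high. The count of 5 is therefore not a test of the family against all genes. DESeq2 called 4 members in both comparisons, at backgrounds of 9.48% and 8.22%: Htr1f, Htr2a, Htr3a and Htr4 in the first, and Htr1a, Htr1d, Htr3a and Htr4 in the second. The lowest adjusted p among the members in edgeR's test of any difference was 0.104, for Htr1f and Htr2a.

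In the pairs of ganglia, edgeR again called 0 members. TG against NG/JG had 0 of 2 members tested at a background of 0.051%, with 1 at an unadjusted p under 0.05 (all genes 10%), and DESeq2 called Htr3a (background 5.29%). TG against L3–L5 DRG had 0 of 4 at a background of 0% and 0 at an unadjusted p under 0.05 (all genes 18.2%), and DESeq2 called Htr1f and Htr2a (8.41%). TG against T10-L1 DRG had 0 of 4 at 5.87%, also with 0 at an unadjusted p under 0.05 (all genes 21.6%), and DESeq2 called Htr2a (12.1%). NG/JG against L3–L5 DRG had 0 of 4 at 0% with 3 at an unadjusted p under 0.05 (all genes 6.04%), and DESeq2 called 6 members (4.49%), with Htr3a higher in NG/JG and Htr1a, Htr1d, Htr1f, Htr2a and Htr4 lower. NG/JG against T10-L1 DRG had 0 of 3 at 0.0322% with 2 at an unadjusted p under 0.05 (all genes 5.91%), and DESeq2 called Htr1d, Htr2a and Htr4 lower in NG/JG (5.36%). L3–L5 DRG against T10-L1 DRG had 0 of 7 at 0%, with 0 at an unadjusted p under 0.05 (all genes 6.07%), and DESeq2 also called 0 (0.4%). Htr1d, with at most 3 reads in any NG/JG library, passed the filter for NG/JG against L3–L5 DRG only through L3–L5 DRG, where it was high. The members' counts at an unadjusted p under 0.05 in the pairs are therefore not tests of the family against all genes. On simulated counts for NG/JG against the mean of the others and TG against NG/JG, DESeq2 called unchanged genes more often than its threshold allows. All genes were simulated with the same spread, not with that of the receptor genes, so this cannot decide which member calls are false. The members called by DESeq2 alone rest on the tool that called more genes in every comparison.

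**Figure D4:**
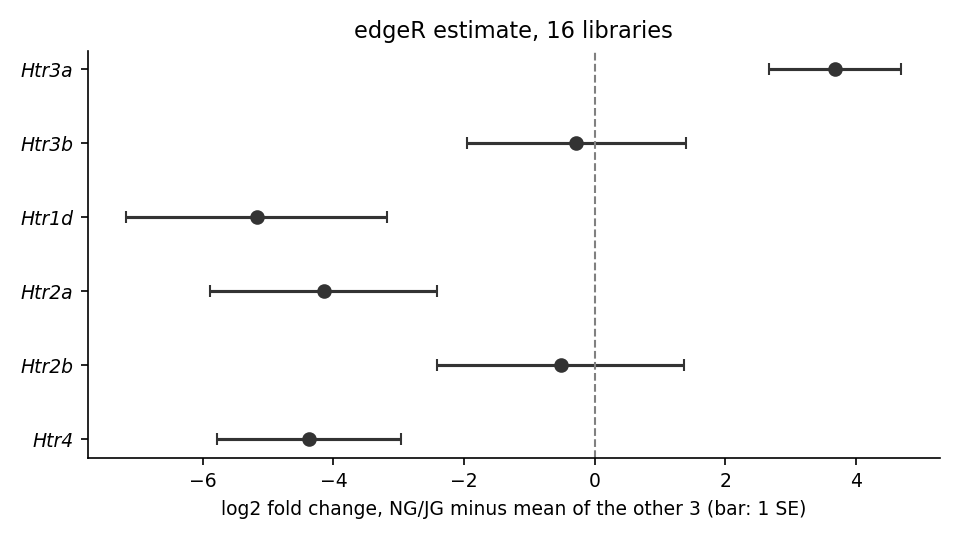
edgeR log2 fold change of NG/JG minus the mean of the other 3 ganglia (x axis) for 6 members (y axis), with bars of 1 SE over 16 libraries; Htr1a and Htr1f, at 0 in all NG/JG libraries, and Htr1b and Htr7, which did not pass the filter, are not drawn. Htr3a stands at 3.68 and Htr4 at -4.38, while the bars of Htr3b and Htr2b cross 0. A bar of 1 SE that misses 0 is not a call, and edgeR called none of the 6. Htr2a had a single read in NG/JG.

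Over the 16 libraries, Htr1a, Htr1d, Htr1f, Htr2a and Htr4 varied in the same direction. Pearson's r of log2(CPM + 1) was 0.485 to 0.772 over their 10 pairs, while Htr3a had r of -0.198 to 0.166 with the 7 other members tested. Htr3b had r of -0.239 to 0.446 and Htr2b -0.198 to 0.309. These are descriptions of points that share ganglion and library, and L3–L5 DRG library 3 held the highest value of Htr1a, Htr1d, Htr1f, Htr2a and Htr4. That library also had the highest neuron marker sum, 10430 CPM, and the lowest glial excess, 1.99 times. By the same measure, the genes most like Htr3a among those tested were Crtac1 (0.853), Rab3b (0.836) and B230206F22Rik (0.818). Those most like Htr4 were Ccdc68 (0.94), Tmem200a (0.934) and A3galt2 (0.931), and those most like Htr1d were Tnr (0.947), Gimap8 (0.852) and Gls2 (0.845).

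Of 4 further serotonin receptor genes, Htr2c and Htr6 had at most 10 reads in any library. Htr5b resembled the DRG members, with 4.26 ± 5.02 CPM in T10-L1 DRG, 8.35 ± 9.61 in L3–L5 DRG, 0.568 ± 0.829 in TG and a single read in NG/JG (SD, n = 4). Htr5a averaged 12.7 ± 19.9 CPM in NG/JG, from 2 of 4 libraries, 1 of which held 301 of the 365 reads. It averaged 6.42 ± 7.29 CPM in L3–L5 DRG, where 3 of 4 libraries were above the floor. In T10-L1 DRG it averaged 1.22 ± 2.44 CPM and in TG 0.215 ± 0.430, each from 1 library. Of 11 genes of serotonin synthesis, transport and breakdown, 8 were tested among the 4 ganglia and edgeR called 0. Maoa, the oxidase that breaks serotonin down, had the highest levels, 26.1 ± 2.71 CPM in TG and 71.5 ± 16.8 to 100.6 ± 47.0 in the other ganglia. Slc29a4, a plasma membrane monoamine transporter, averaged 40.6 ± 28.5 CPM in L3–L5 DRG and 3.03 ± 2.68 in TG.

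Of the G protein partners, edgeR called 0 of 4 Gi/o genes, 0 of 9 Gs genes, 0 of 3 receptor trafficking genes and 1 of 6 Gq genes among the 4 ganglia. The called gene was Plcb3, a phospholipase C downstream of Gq (adjusted p = 0.0209). Leaving out single libraries, chosen after seeing the data, gave adjusted p-values of 0.0123 to 0.114 for Plcb3 in edgeR, and the call was lost without TG library 2, 3 or 4 or L3–L5 DRG library 2. It averaged 55.3 ± 15.5 CPM in TG, 180.4 ± 72.2 in NG/JG, 260.9 ± 132 in T10-L1 DRG and 489 ± 262 in L3–L5 DRG (SD, n = 4). Mast cells are a source of serotonin, and their 5 markers were at the floor in all NG/JG libraries, while the list summed to 0 to 49.6 CPM in TG. For L3–L5 DRG the sum was 0 to 20.9 CPM, and the T10-L1 DRG libraries had at most 14.03 CPM. The TG maximum was library 2, and the 3 others had at most 2.81 CPM.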

How the data were processed

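TdTomato-positive sensory neurons of 4 ganglia were profiled in 16 libraries, 4 per ganglion. The authors made SMART-seq2 cDNA from small amounts of RNA, sequenced it as single reads, used TopHat2 for alignment to mm9 and HTSeq for counting per gene. The deposited values are raw counts; the annotation, strand setting and tool versions are not given in the sources used here, and the counter's totals of uncounted reads were left out.

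Groups came from the tissue labels. CPM used reads on genes (4735624 to 13333318 per library), and RPKM the union of GENCODE M1 exons on NCBIM37, the assembly of mm9, for all 10 members. edgeR 4.0.16 in R 4.3.3 (TMM, filterByExpr, quasi-likelihood test) was fitted to all genes with Benjamini-Hochberg adjustment: 16 libraries for any difference and for NG/JG against the mean of the others, and 8 for each pair. The Htr3b to Htr3a ratio was tested by exact permutation in scipy 1.17.1. Intervals are exact binomial. Alternatives were DESeq2 1.42.0, RLE factors, no filter, a replicate block, a joint fit and leaving out each library. The code was tested on simulated data, where DESeq2 made more false calls than its nominal level. All 10 members were described in every library; of other lists, the 2 most abundant genes and any called could be named, and Htr5a, Htr5b, Htr2c and Htr6 are named as the rest of the receptor family. The members and lists were chosen with earlier results of these data known.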

Additional observations from a re-analysis of the deposited data

Results flagged for a closer look

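In 12 of the 35 groups of 4 libraries with reads of a receptor gene, the highest library stood apart from the others by more than Dixon's 95% critical value of 0.829 of the range and held more than 3 reads. Chance gives such a gap in about 1 in 20 groups of normally distributed values. Over the 14236 genes tested, 15.5% of 56241 groups did so by the same measure, against 34.3% of the 35. These shares are of unlike sets. The 35 groups, and the 12 among them, include groups of Htr1b and Htr7, which did not pass the filter that the 14236 genes passed. In 5 of the 12 the 3 other libraries had no read, so the gap was the whole range. In 2 further groups the library that stood apart had at most 3 reads. Each value is the CPM of the library that stood apart. Htr3a reached 190.5 in T10-L1 DRG library 3, with the next at 12.6. Htr3b reached 16.6 in NG/JG library 2, with the next at 1.11. Htr1d reached 13.2 in TG library 4 and 57.1 in L3–L5 DRG library 3, with the next at 1.55 and 9.92. Htr2a reached 7.95 in T10-L1 DRG library 1, and Htr1f 1.97 in T10-L1 DRG library 3. Htr1a stood at 5.42 and Htr7 at 1.52 in T10-L1 DRG library 2. Htr1b stood at 1.18 in TG library 2, 4.15 in NG/JG library 3 and 0.476 in T10-L1 DRG library 2, where the other libraries of each group had none. Htr2b stood at 3.46 in NG/JG library 3, also with none in the others.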

How the results depend on the processing

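edgeR called 0 members in all 8 comparisons, and RLE factors and the joint fit of all 16 libraries also called 0. DESeq2 called 4 members for any difference, 4 for NG/JG against the mean of the others, 1 for TG against NG/JG, 2 for TG against L3–L5 DRG, 1 for TG against T10-L1 DRG, 6 for NG/JG against L3–L5 DRG and 3 for NG/JG against T10-L1 DRG. Without the filter 1 member, Htr3a, was called in NG/JG against the mean of the others and 1 in TG against NG/JG. Leaving out a library gave 0 to 1 members in the first 2 comparisons and 0 in the 6 pairs. The cause was not tested.

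With the replicate block, Htr3a was called for any difference (1 member, adjusted p = 0.0111) and for NG/JG against the mean of the others (1 member, log2 difference 5.21, adjusted p = 0.00214). Same-numbered libraries deviated together with r of -0.12 to 0.177, and 1 to 6 of 8 libraries per pair were closest to their own number. The count was 6 for TG with T10-L1 DRG and for NG/JG with L3–L5 DRG. It was 1 for T10-L1 DRG with NG/JG and with L3–L5 DRG. The labels do not say whether the numbers pair the libraries, and these values cannot decide it. Under the block, log2 differences changed sign for Htr1d and Htr3a in TG minus T10-L1 DRG (-1.74 and 0.40) and for Htr2a, Htr2b and Htr3a in L3–L5 DRG minus T10-L1 DRG (-0.13, 0.36 and 0.71).

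When single libraries were left out, sign changes gave these log2 ranges: for NG/JG against the mean of the others, Htr2b -6.38 to 0.0614 and Htr3b -3.64 to 0.31. For TG minus L3–L5 DRG they were -4.71 to 0.0176 for Htr1d, -1.55 to 1.20 for Htr3a and -1.45 to 2.00 for the Htr3b to Htr3a ratio. For TG minus T10-L1 DRG they were -2.50 to 0.82 for Htr1d and -1.78 to 2.73 for Htr3a. Htr3b ran from -3.43 to 0.46 in NG/JG minus L3–L5 DRG and -2.52 to 1.27 in NG/JG minus T10-L1 DRG. In L3–L5 DRG minus T10-L1 DRG, Htr2a ran from -1.03 to 1.58, Htr2b from -1.38 to 1.63 and Htr3a from -1.79 to 3.04. None of these differences was called.

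Over all genes, edgeR's 429 calls for any difference ran from 33 to 1035 without single libraries and DESeq2 made 1868, and the 118 for NG/JG ran from 60 to 539 with 1620. TG against NG/JG moved from 6 to between 1 and 325 (DESeq2 854, no filter 56, joint fit 484), TG against L3–L5 DRG from 0 to at most 2038 (DESeq2 1612, no filter 39, joint fit 206) and TG against T10-L1 DRG from 758 to between 0 and 3583 (DESeq2 2199, no filter 427, joint fit 238). NG/JG against L3–L5 DRG had 0 to 2 (DESeq2 819, joint fit 83), NG/JG against T10-L1 DRG 1 to 5 (DESeq2 909, joint fit 54), and L3–L5 DRG against T10-L1 DRG 0 (DESeq2 78). The block gave 184, 37, 1, 0, 0, 0, 0 and 0 calls in the 8 comparisons.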
